A study of Mus musculus with 48 samples.

Results

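Respiratory complex I is built from subunits encoded in the nucleus and in the mitochondrion, and the nuclear genes for its subunits and assembly factors are described here in the mouse substantia nigra (SN). Members were taken by symbol: every gene whose name is Nduf followed by a, b, c, s, v or af and a number, without *Ndufa4*, which is now counted with complex IV, and its relative *Ndufa4l2*. The rule found 44 of the 19601 genes that the authors kept as protein coding in the batch-corrected tables, and all 44 were among the 14839 genes tested. They were sorted into 7 core subunits, 9 accessory subunits of the matrix arm, 9 of the proximal membrane arm, 11 of the distal membrane arm, and 8 assembly factors. The question was how the transcripts of this complex differed with α-synuclein (α-syn) aggregates and with breathing 11% O2.

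Complex I, the NADH:ubiquinone oxidoreductase, takes electrons from NADH at the tip of its matrix arm, passes them along a chain of iron-sulfur clusters to ubiquinone, and pumps protons through its membrane arm. The core subunits carry the redox centres and the pump. The accessory subunits surround and stabilise them, and assembly factors help to build the enzyme without staying in it. Loss of complex I activity in the SN has long been associated with Parkinson's disease, and mice that lack the accessory subunit *Ndufs4* are a model of Leigh syndrome.

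All mice were C57BL/6J males injected on 1 side, in the right striatum, at 17.3 weeks of age, either with pre-formed fibrils of mouse α-syn (PFF) or with monomeric mouse α-syn as the control. Each then breathed 21% or 11% O2, and the whole SN, not the pars compacta alone, was collected 90 to 98 days after injection, at 30.1 to 31.3 weeks of age. The sources used here give different durations of 11% O2, so none is stated. Every control was thus an injected mouse, and no uninjected group was analysed here. Of 48 mice, the 42 that the authors kept were compared: 11 monomer and 12 PFF mice at 21% O2, and 9 monomer and 10 PFF mice at 11% O2. The labels give 3 batches. No monomer mouse at 11% O2 was in batch 2, and no monomer mouse at 21% O2 was in batch 3. The effect of O2 in monomer mice could thus be read within batch 1 alone. The same holds for a difference in the effect of PFF between the O2 levels.

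Each of the 42 mice had 12902996 to 17120921 counts on genes before correction. All 6 of *Vegfa*, *Kdr*, *Adm*, *Slc16a3*, *Pdk1* and *Ankrd37*, which are known targets of the hypoxia response, rose at 11% O2 in monomer and in PFF mice by edgeR's test. None of the 7 markers of dopaminergic (DA) neurons and none of the 7 general neuronal markers passed the test in any comparison, and all of them were detected. At 21% O2 the summed DA markers ran from 1163 to 4711 TPM (defined below) in monomer and from 1110 to 4639 TPM in PFF mice. At 11% O2 they ran from 1068 to 5298 TPM and from 1843 to 4466 TPM. With ranges this wide, the lack of a call does not show that DA neurons were unchanged. The paper counted fewer DA neurons in the pars compacta of PFF than of monomer mice at 21% O2. Because the tissue was sequenced in bulk, a change in the number of cells of a type and a change in RNA per cell cannot be told apart.

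Complex I transcripts were abundant, and assembly factors were the least abundant class. Values are batch-corrected TPM (transcript levels scaled by gene length and to a fixed total). Together the 44 genes made up a median of 0.814% of all TPM in monomer mice at 21% O2, with a lowest value of 0.739% and a highest of 0.822%. The corresponding lowest, median and highest shares were 0.770%, 0.828% and 0.911% in PFF mice at 21% O2. They were 0.768%, 0.786% and 0.859% in monomer mice at 11% O2. In PFF mice at 11% O2 they were 0.736%, 0.803% and 0.879%. The 4 ranges overlapped.

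Averaged over the 42 mice, the level of the members ran from 22.2 TPM for *Ndufb2* to 499 TPM for *Ndufa8*, a 22.4-fold range among genes whose products are assembled into the same enzyme. In the core class *Ndufs1*, a carrier of several iron-sulfur clusters, was lowest at 95.7 ± 5.72 TPM (SD, n = 42). *Ndufv1*, which binds NADH and flavin, had 319 ± 19.7 TPM, and its neighbour *Ndufv2* had 281 TPM. *Ndufs8*, *Ndufs7* and *Ndufs3* of the connecting stalk had 276, 222 and 163.9 TPM. In the matrix arm, *Ndufa9* was highest at 295 TPM and *Ndufs4* lowest at 71.1 TPM. In the proximal membrane arm, *Ndufa8* was highest and *Ndufc1* lowest at 84.8 TPM. In the distal membrane arm, *Ndufb11* was highest at 423 TPM and *Ndufb2* lowest. Assembly factors ran from 74.8 TPM for *Ndufaf5* to 27.5 TPM for *Ndufaf6*, and the 8 together gave 5.13% of the TPM of all members. The lowest mean count per mouse was 130, for *Ndufaf6*. The order was stable: no gene moved by more than 3 places out of 44 between any 2 groups.

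The order on the TPM scale depends on the gene length used. The annotated exons of *Ndufs1* and *Ndufb2*, joined over all transcripts, cover 8086 and 5628 bases, the longest of the members, against 908 bases for *Ndufb11* and 861 for *Ndufa8*. *Ndufb2* has 2 transcripts with a retained intron among 6. Its mean count of 479 was close to the 485 of *Ndufc1*, which had 84.8 TPM. Exons of 18 members share bases with another gene, 16 of them with a gene on the opposite strand, which counting without strand cannot separate. For *Ndufb11* these are 117 of 908 bases, shared with *Rbm10*. For *Ndufb2* they include 146 of 5628 bases shared with *Braf*. *Ndufv3* and *Ndufs4* shared none.

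**Figure D1:**
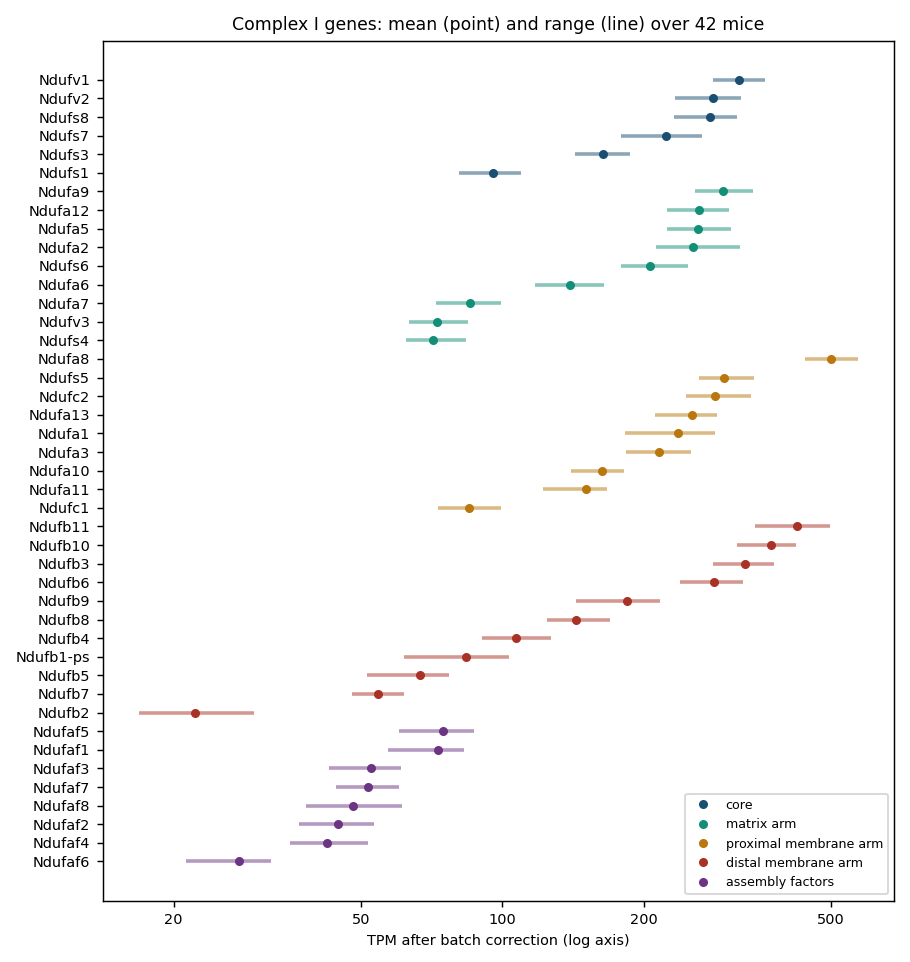
Mean (point) and range (line) over 42 mice of batch-corrected TPM, on a log axis, for 43 of the 44 complex I genes, coloured by class. Most subunits lie between 50 and 500 TPM, the assembly factors lie below 100 TPM, and Ndufb2 is the lowest gene.

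Within groups the members were steadier than the usual gene. The SD between mice of a group, on log2 CPM (counts scaled by library size), had a median of 0.11 over the 44 members, against 0.14 over the 14839 genes tested. It was lowest for *Ndufs1* (0.089) and highest for *Ndufb1-ps* (0.18). The gene models used here list *Ndufb1-ps* as a noncoding RNA at a bidirectional promoter, with 0 protein-coding transcripts, although the authors' table of protein-coding genes holds it. The genes tested were not matched to the members for abundance, and its part in this difference was not tested. The members also varied together from mouse to mouse. After each group's mean was taken away, Pearson's r between 2 members had a median of 0.50 over 946 pairs, and 93.9% of pairs were above 0. Between a member and any other gene tested, the median r was 0.0031. These are descriptions over 42 mice that share batch correction and library scaling.

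The same co-variation reached other abundant gene groups. The median r was 0.51 between a member and the nuclear subunits of complexes II to V, 0.42 with the 7 subunits that the mitochondrion encodes, and 0.44 with cytosolic ribosomal proteins. It was 0.27 with mitochondrial ribosomal proteins. One member stood apart. *Ndufb2*, a small subunit of the distal membrane arm, had a median r of -0.23 with the other 43 members, the only value below 0. The next lowest was that of the assembly factor *Ndufaf6* at 0.20. The highest was that of *Ndufa12*, at 0.67.

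**Figure D2:**
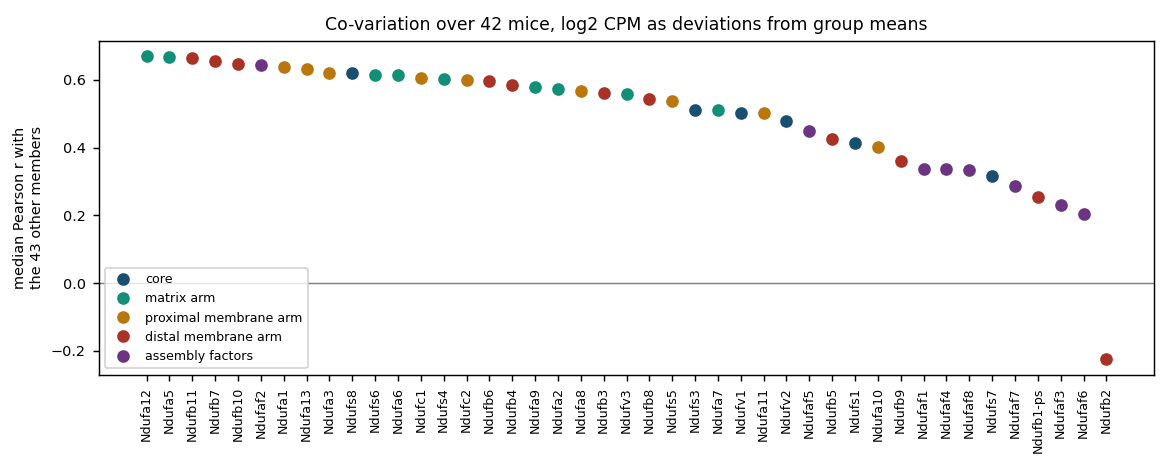
Median Pearson r of 43 complex I genes, each with the 43 other members, over 42 mice, from log2 CPM with group means taken away, coloured by class. Ndufb2, at -0.23, is the only gene below 0.

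Since the members varied together, their promoter sequences were searched for letters that factors known to act on mitochondrial genes bind. RefSeq windows of 250 bases before to 50 bases after the start (build GRCm38.p6) were matched by symbol for 38 of 44 members. The 4 motifs were searched on both strands: GCGCATGC for NRF1, CCGGAAGT for GABP, AAGATGGC for YY1 and AAGGTCA for estrogen-related receptors. The YY1 letters were in 8 of 38 members (21.1%) and in 3.19% of the 27025 genes with a window. The NRF1 letters were in 5 of 38 (13.2%) against 3.05%. Those of GABP were in 1 (2.63%) against 4.31%, and those of the receptors in 3 (7.89%) against 5.38%. The 27025 genes were not limited to the genes tested here. The windows of members had a median GC content of 59.3%, against 52.7% over all windows. The part of GC content and of the choice of genes in these shares was not tested. In all 8 members the YY1 letters read along the gene's own strand, 11 to 46 bases after the start, and in 7 of 8 their ATG is the start codon in GENCODE. Of these, 4 are shown, with the motif in capitals, to show the context they share: *Ndufs7* (chr10:80249462-80249491, + strand), *Ndufs4* (chr13:114388045-114388070, - strand), *Ndufa9* (chr6:126849097-126849126, - strand) and *Ndufc1* (chr3:51408915-51408944, - strand).
Ndufs7: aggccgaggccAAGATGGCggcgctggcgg
Ndufs4: ttgcctacaggAAGATGGCggcggtc
Ndufa9: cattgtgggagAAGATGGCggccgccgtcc
Ndufc1: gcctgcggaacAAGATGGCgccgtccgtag

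The 3 members that passed a test in the comparisons that follow are shown by the 250 bases before their start, with any motif in capitals: *Ndufv3* (chr17:31519865-31520114, + strand), *Ndufb11* (chrX:20617620-20617869, - strand) and *Ndufb2* (chr6:39592315-39592564, + strand).
Ndufv3: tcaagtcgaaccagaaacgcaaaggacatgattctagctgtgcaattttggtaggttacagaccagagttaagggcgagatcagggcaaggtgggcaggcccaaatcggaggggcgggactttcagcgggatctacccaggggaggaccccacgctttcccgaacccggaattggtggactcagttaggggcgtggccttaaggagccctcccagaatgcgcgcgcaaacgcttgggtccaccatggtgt
Ndufb11: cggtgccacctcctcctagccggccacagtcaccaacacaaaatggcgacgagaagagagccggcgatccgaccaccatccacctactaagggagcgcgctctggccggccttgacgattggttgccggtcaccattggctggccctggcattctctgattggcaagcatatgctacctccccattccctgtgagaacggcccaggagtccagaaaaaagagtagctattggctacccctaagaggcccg
Ndufb2: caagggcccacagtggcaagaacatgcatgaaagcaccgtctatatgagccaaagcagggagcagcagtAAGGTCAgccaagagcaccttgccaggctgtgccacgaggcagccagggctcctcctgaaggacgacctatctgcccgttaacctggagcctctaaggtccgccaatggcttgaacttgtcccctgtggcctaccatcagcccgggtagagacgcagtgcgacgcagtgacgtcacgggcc
*Ndufb2* held the receptor letters at bases 70 to 76 of the stretch shown, and none of the 4 motifs was found in the windows of *Ndufv3* and *Ndufb11*. The GC content of the stretches shown was 57.6%, 59.2% and 60.0%. On GRCm38 the gene *Ndufv3* (ENSMUSG00000024038.17) lies at chr17:31520115-31531331, *Ndufb11* (ENSMUSG00000031059.9) at chrX:20615326-20617619 and *Ndufb2* (ENSMUSG00000002416.13) at chr6:39592574-39603382, all annotated as protein coding.

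At 21% O2, 2 complex I transcripts rose in PFF against monomer mice, and nearly all the others had a small log2 fold change above 0. The 2 were *Ndufv3*, an accessory subunit at the NADH-oxidising tip, and *Ndufb11*, a membrane arm subunit encoded on the X chromosome. That is 2 of 44, where 7.59% of all genes tested were called at an adjusted p under 0.05. The log2 fold change was above 0 for 41 of 44 members and had a median of 0.064, beside 7474 of 14839 genes and a median of 0.00085 over all genes. The exceptions were *Ndufb2*, *Ndufaf4* and *Ndufaf1*. At an unadjusted p under 0.05 there were 14 of 44 members, beside 3317 of 14839 genes. Of the 14, *Ndufb2* alone was lower in PFF mice (-0.16, adjusted p = 0.102 by edgeR). The 11 that had such a p, were higher and did not pass ran from 0.092 to 0.14. Under the study's further requirement of an absolute log2 fold change above 0.25, 0 of 44 members were called, against 3.7% of all genes.

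*Ndufv3* had 63.7 TPM in the lowest, 68.2 in the median and 74.5 in the highest monomer mouse at 21% O2. In PFF mice at 21% O2 it had 68.1, 76.8 and 82.9 TPM. The ranges overlapped, but the median PFF mouse lay above every monomer mouse. The log2 fold change was 0.16 ± 0.041 (SE), a rise of 11.9%, and edgeR's quasi-likelihood test gave an adjusted p of 0.0102. Batch 1 alone gave 0.20 and batch 2 alone 0.14. *Ndufb11* had 345, 409 and 430 TPM in the lowest, median and highest monomer mouse, and 405, 438 and 497 TPM in PFF mice. Here too the median PFF mouse exceeded the highest monomer mouse, while the lower PFF mice lay within the monomer range. The log2 fold change was 0.14 ± 0.042, a rise of 10.1%, with an adjusted p of 0.0350 by the same test. Within batch 1 it was 0.21, and within batch 2 it was 0.049. With batch as a covariate and all 48 mice, *Ndufb11* no longer passed (adjusted p = 0.159). Over the same comparison 1 of 5 oligodendrocyte markers rose, *Mog*, by 0.20 on the log2 scale, and no marker of neurons, astrocytes, microglia, vessels, red cells or choroid plexus passed. The summed oligodendrocyte markers ran from 7091 to 9744 TPM in monomer and from 7090 to 9251 TPM in PFF mice, with none at 0, and their part in the result was not tested.

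**Figure D3:**
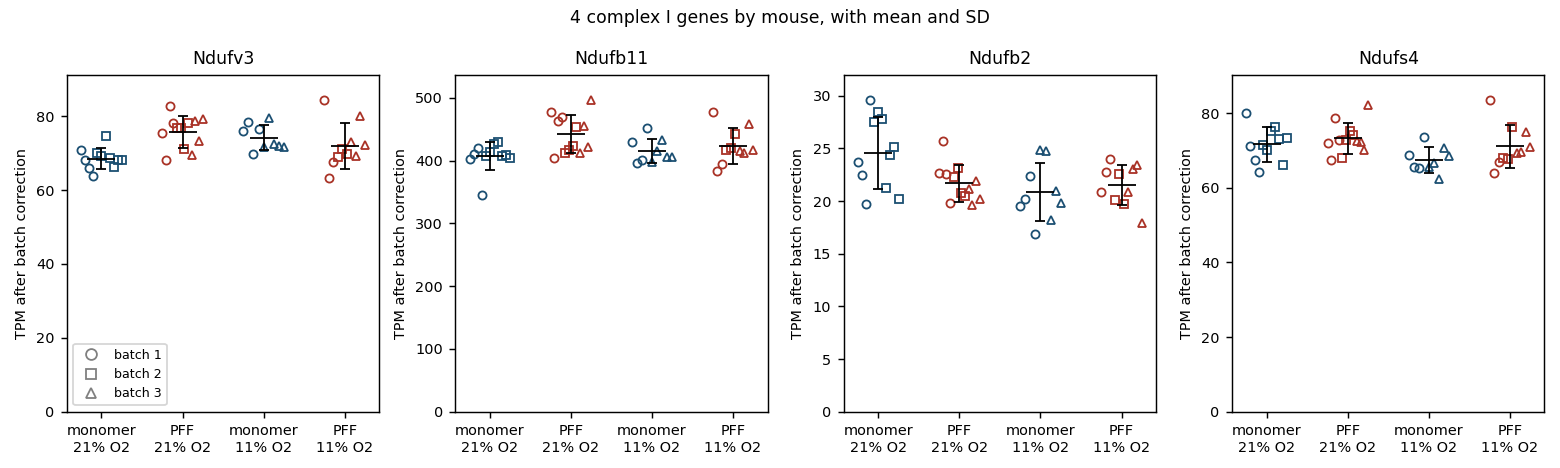
Batch-corrected TPM of 4 complex I genes in each mouse by group, from 0, with monomer mice in blue, PFF mice in red, a shape for each batch, and black bars for the mean and SD. Ndufv3 and Ndufb11 were higher in PFF than in monomer mice at 21% O2, Ndufb2 was lower at 11% than at 21% O2 in monomer mice, and Ndufs4 passed the test in no comparison.

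By class, the medians at 21% O2 were higher for accessory than for core subunits. All 9 matrix arm subunits and all 9 subunits of the proximal membrane arm were above 0, with medians of 0.096 and 0.086, and 10 of 11 in the distal membrane arm, with a median of 0.092. The 7 core subunits were all above 0 with a smaller median of 0.036 and a range of 0.023 to 0.11, the highest being *Ndufv2*, and none passed the test. Of the 8 assembly factors 6 were above 0, with a median of 0.031, and none passed. *Ndufs4* had a log2 fold change of 0.049 ± 0.043, with an adjusted p of 0.528 by edgeR. The difference between classes was not tested.

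The median was larger in batch 1 than in batch 2, a difference that was not tested. Within batch 1 the median log2 fold change was 0.098, with 40 of 44 members above 0, and within batch 2 it was 0.013, with 26 of 44 above 0. Batch 3 held no monomer mice at 21% O2. The pooled median was 0.064. Between mice of a group, the members' mean log2 CPM had an SD of 0.078. This SD describes single mice and is not the error of a difference between group means.

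In mice breathing 11% O2, no complex I transcript passed between PFF and monomer mice. By edgeR 0 of 44 members passed, and 0 passed by DESeq2, with 0% of all 14839 genes called by edgeR. At an unadjusted p under 0.05 there were 0 of 44 members, beside 581 of 14839 genes. The median log2 fold change came to 0.025, with 34 of 44 members above 0, and it was -0.029 within batch 1 and 0.060 within batch 3. *Ndufv3* had 69.8, 72.4 and 79.5 TPM in the lowest, median and highest monomer mouse at 11% O2, and 63.3, 70.5 and 84.5 TPM in PFF mice. Its log2 fold change was -0.029 ± 0.045. *Ndufb11* had 397, 407 and 452 TPM in monomer and 383, 417 and 478 TPM in PFF mice, with a log2 fold change of 0.044 ± 0.046. For both genes the PFF range enclosed the monomer range. The largest log2 difference among the members was 0.11, for *Ndufb5*. All 44 of the 95% confidence intervals lay within 0.25 of 0, from -0.17 for *Ndufaf2* to 0.25 for *Ndufb1-ps*, so a change of over 18.7% lay outside the interval of every member.

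In monomer mice a single complex I transcript fell at 11% against 21% O2: *Ndufb2*, whose product lies in the distal membrane arm. This was 1 of 44 members, where 13.2% of all genes were called. With the fold requirement the figures were 0 of 44 and 7.23%. *Ndufb2* had 19.7, 24.3 and 29.6 TPM in the lowest, median and highest monomer mouse at 21% O2, and 16.9, 20.2 and 24.8 TPM at 11% O2. The ranges overlapped over much of their length. The log2 fold change was -0.23 ± 0.068 (SE), a fall of 14.9%, with an adjusted p of 0.0170 by edgeR's test. Within batch 1, the batch that held both groups, it was -0.25. With batch as a covariate on the uncorrected counts of the 42 mice it was -0.22 and did not pass (adjusted p = 0.0889), whereas with all 48 mice it was -0.29 and passed (adjusted p = 0.0252).

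The other 43 members did not pass with O2 in monomer mice. The median log2 fold change was -0.0071, with 18 of 44 members above 0, beside -0.0060 over all genes, and within batch 1 the median was 0.045. The 7 core subunits had a median of -0.0033, and none passed. Of the assembly factors 7 of 8 were below 0, with a median of -0.036, and none passed in this fit. *Ndufaf5*, an assembly factor that modifies *Ndufs7*, was the nearest of these, with a log2 fold change of -0.14 and an adjusted p of 0.0609. *Ndufv3* was higher, at 0.12 ± 0.044 with an adjusted p of 0.0587. Both stood close to the threshold. *Ndufv3* passed with DESeq2 (adjusted p = 0.0468), with its size factors and in 1 of 3 limma fits. *Ndufaf5* passed as lower with batch as a covariate in 48 mice (adjusted p = 0.0320) and in all 3 limma fits, with adjusted p from 0.0339 to 0.0411. *Ndufs4* had 64.2, 71.4 and 79.9 TPM at 21% O2 and 62.3, 66.7 and 73.7 TPM at 11% O2, with a log2 fold change of -0.083 ± 0.046. For 43 of 44 members the 95% interval lay within 0.25 of 0, the exception being *Ndufb2*. Without PFF mouse 6 at 21% O2, which shares the fit and was left out after seeing the data, *Ndufb2* and *Ndufv3* both passed. Over the same comparison all 5 endothelial, all 4 pericyte, all 5 red cell, 2 of 5 oligodendrocyte and 1 of 3 precursor markers rose. The summed endothelial markers ran from 121.4 to 178.03 TPM at 21% O2 and from 172.7 to 314 TPM at 11% O2. The summed pericyte markers ran from 77.6 to 110.0 TPM and from 116 to 260 TPM, and those of red cells from 514 to 1404 TPM and from 1058 to 5795 TPM. No marker was at 0, and the part of these cells in the result was not tested.

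In PFF mice no complex I transcript passed between 11% and 21% O2, and most log2 fold changes were slightly below 0. By edgeR and by DESeq2 the count was 0 of 44, where edgeR called 0.815% of all genes, or 0.58% with the fold requirement. An unadjusted p under 0.05 was found for 3 of 44 members, beside 1588 of 14839 genes. The 3 were *Ndufa7*, *Ndufa10* and *Ndufa11* (-0.099, -0.087 and -0.095). The log2 fold change was below 0 for 39 of 44 members, with a median of -0.047, beside -0.0063 over all genes. All 7 core and all 9 matrix arm subunits were below 0, with medians of -0.037 and -0.063. The median was -0.099 within batch 1 and -0.073 within batch 3 but 0.032 within batch 2, where 32 of 44 members were above 0. *Ndufb2*, the member that fell with 11% O2 in monomer mice, had a log2 fold change of -0.0081 ± 0.065 here. Over the same comparison 2 of 5 endothelial markers (*Cldn5* by 0.47 and *Flt1* by 0.53) and 2 of 4 pericyte markers (*Kcnj8* by 0.34 and *Abcc9* by 0.58) rose. The 5 red cell markers had a median of 0.79, all with an unadjusted p under 0.05 and none passing. From 21% to 11% O2 the summed endothelial markers went from a range of 107 to 194 TPM to one of 168 to 230 TPM, the pericyte markers from 76.6 to 129 TPM to 108 to 170.4 TPM, and the red cell markers from 383 to 2409 TPM to 1104 to 4972 TPM. No marker was at 0, and the part of these cells in the lower values was not tested.

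**Figure D4:**
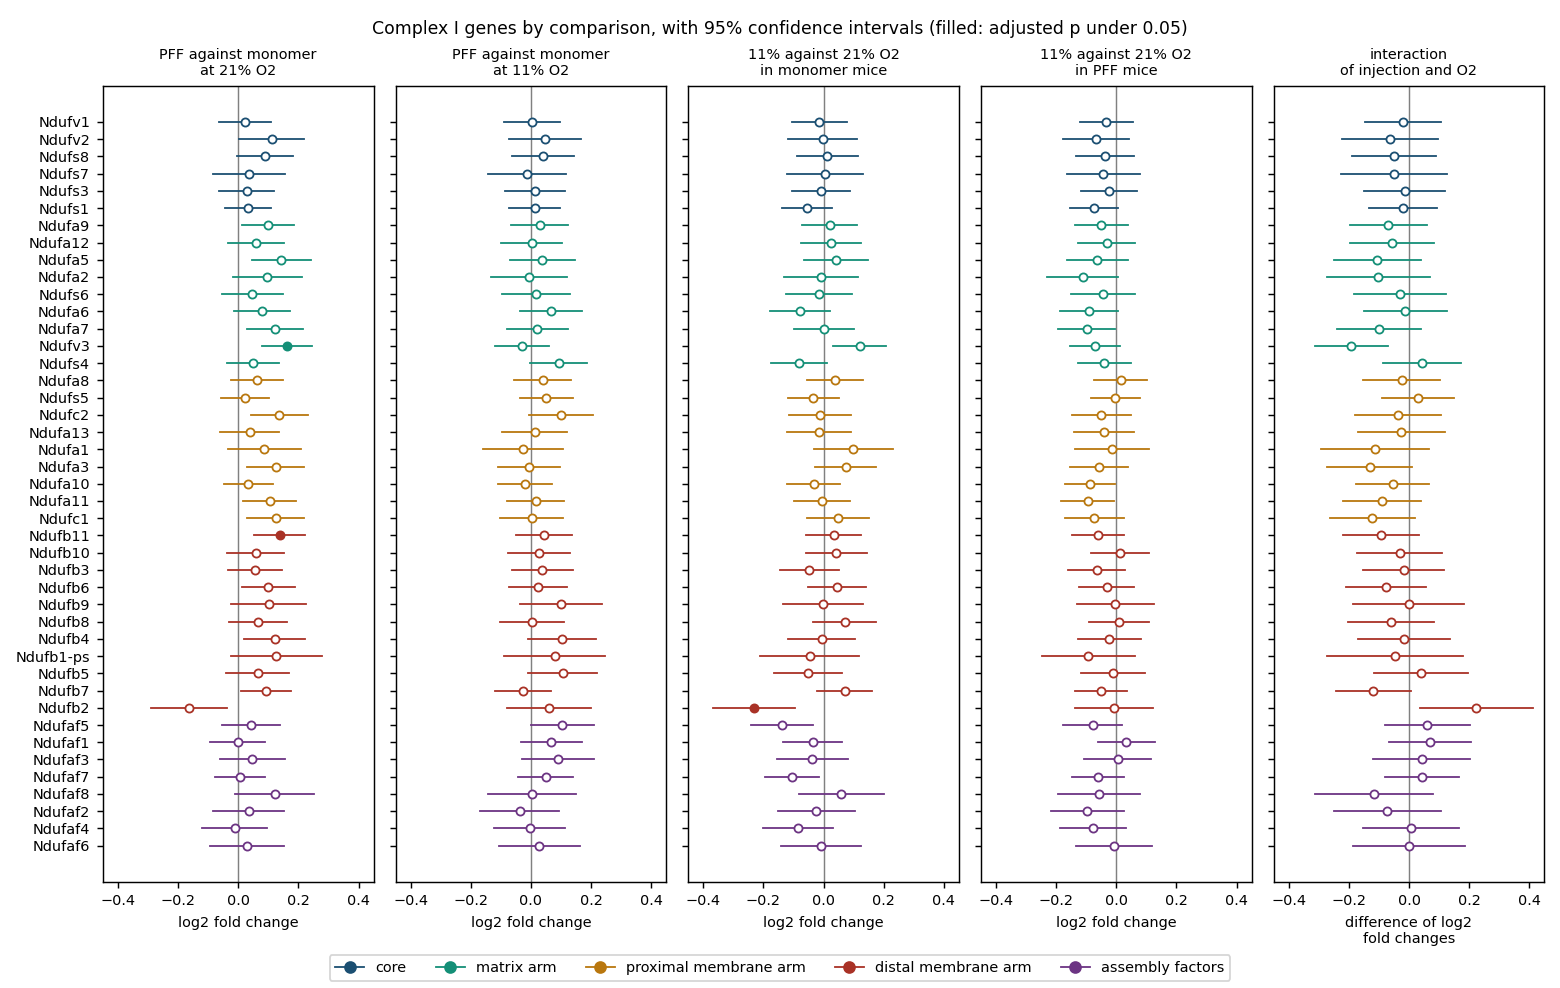
Log2 fold change with its 95% confidence interval for 43 of the 44 complex I genes in the 5 comparisons, ordered by class and then by mean TPM. Filled points passed an adjusted p under 0.05: Ndufv3 and Ndufb11 for PFF at 21% O2 and Ndufb2 for 11% O2 in monomer mice.

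The interaction asked whether the effect of PFF differed between 11% and 21% O2. No member passed by edgeR or by DESeq2, where edgeR called 2.32% of all genes, or 2.14% with the fold requirement. At an unadjusted p under 0.05 there were 2 of 44 members, beside 2279 of 14839 genes. The median was -0.041, with 34 of 44 members below 0, among them all 7 core subunits, while 6 of 8 assembly factors were above 0. *Ndufv3* came nearest: its fold change with PFF was lower at 11% than at 21% O2, with an interaction of -0.19 ± 0.060 (SE) and an adjusted p of 0.0807 by edgeR, and it was -0.26 in batch 1. The other was *Ndufb2*, with 0.22 ± 0.093 and an adjusted p of 0.217. For *Ndufb11* the interaction was -0.094 ± 0.063 with an adjusted p of 0.505, so a different response of *Ndufb11* to PFF at the 2 O2 levels was not shown. The 95% intervals of 9 members reached beyond 0.25 in either direction. The comparisons share mice, so the values with PFF at 21% O2 and the lower values at 11% O2 within PFF mice rest in part on the same 12 PFF mice at 21% O2. Among the cell type markers *Mog* of oligodendrocytes (-0.33) and *Pdgfrb* of pericytes (-0.39) passed the interaction by edgeR (adjusted p = 0.0268 for both), and their part in the values of the members was not tested.

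Other gene groups of the same machinery were set beside the members. The 7 complex I subunits encoded by mitochondrial DNA were all higher in PFF mice at 21% O2, with a median log2 fold change of 0.14. Of these *mt-Nd1* (0.20 ± 0.052, adjusted p = 0.0118 by edgeR) and *mt-Nd3* (0.19 ± 0.049, adjusted p = 0.0113) rose, both core subunits of the membrane arm. The median of the 7 was 0.20 within batch 1 and 0.091 within batch 2. The libraries were selected for poly(A), and reads that mapped equally well to both genomes had been assigned to the mitochondrion. Nuclear subunits of complexes II to V had a median of 0.074, with 41 of 45 above 0 and 1, *Atp5j2* of the ATP synthase, passing. Cytosolic ribosomal proteins had a median of 0.11, with 77 of 77 above 0 and 8 passing, and mitochondrial ribosomal proteins 0.048, with 62 of 77 above 0 and 2, *Mrps28* and *Mrps9*, passing. The medians of all 5 lists thus lay above 0 at 21% O2, beside 0.00085 over all genes, of which 7.59% were called. At 11% O2 they lay above 0 with PFF as well, with no gene called: 0.025 for the members, 0.025 for complexes II to V, 0.11 for the mitochondrially encoded subunits, 0.042 for cytosolic and 0.018 for mitochondrial ribosomal proteins. Each of these medians changed sign between batch 1 and batch 3. Those of the members were -0.029 and 0.060, and those of complexes II to V -0.033 and 0.042. The mitochondrially encoded subunits had 0.18 and -0.059. Cytosolic ribosomal proteins had 0.030 and -0.0051, and mitochondrial ones -0.013 and 0.031. A further 12 complex I genes were tested, such as the acyl carrier protein *Ndufab1* and assembly factors with other names. With PFF at 21% O2, 8 were above 0 and none of the 12 passed. *Tmem70*, one of these, fell at 11% O2 in monomer mice (-0.15 ± 0.050, adjusted p = 0.0369).

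Of the 2 genes that the symbol rule left out, 1 rose. *Ndufa4l2*, a known target of hypoxia-inducible factor, rose with 11% O2 in monomer mice by 0.66 ± 0.13 and in PFF mice by 0.66 ± 0.13 on the log2 scale (adjusted p = 6.4e-04 and 0.0030 by edgeR). *Ndufa4* passed in no comparison. At 11% O2 the gene *Cox6b2*, an isoform of a complex IV subunit, fell in both monomer and PFF mice, by 0.34 and by 0.59 on the log2 scale; in monomer mice within batch 1 the value was -0.18.

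**Figure D5:**
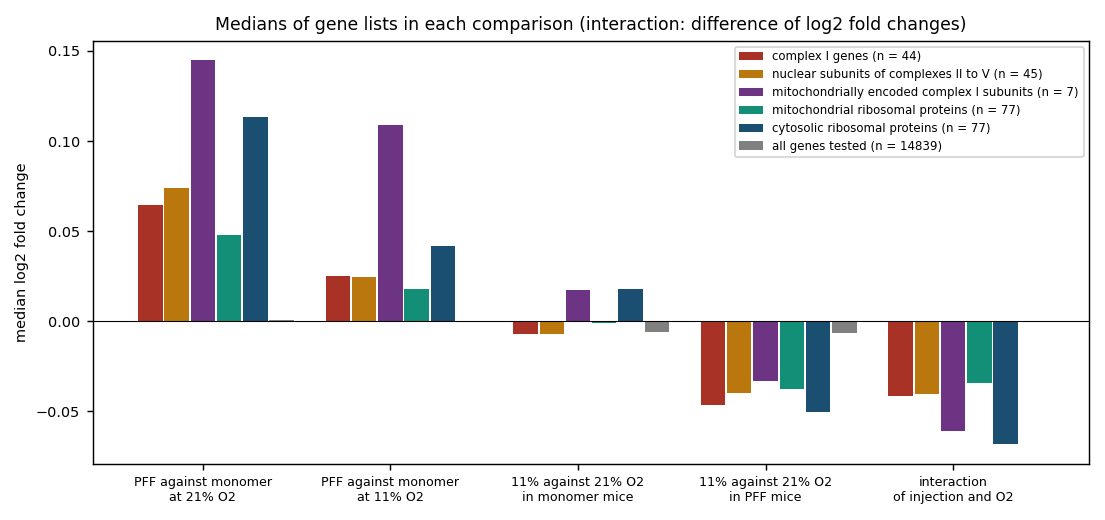
Median log2 fold change of 5 gene lists and of all 14839 genes tested, in each comparison. Complex I genes, complexes II to V, mitochondrially encoded subunits and both kinds of ribosomal protein lie above 0 for PFF at both 21% and 11% O2 and below 0 for 11% O2 in PFF mice. Single batches, not drawn, differed. Within batch 2, the medians of all 5 lists for 11% O2 in PFF mice were above 0. For PFF at 11% O2, each list changed sign between batches 1 and 3.

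Of 10 regulators of mitochondrial gene expression, 2 fell in PFF against monomer mice at 21% O2, where 7.59% of all genes were called: *Yy1*, a zinc finger factor, and *Ppargc1b*, a coactivator of the PGC-1 family. *Yy1* had 43.3, 50.8 and 53.2 TPM in the lowest, median and highest monomer mouse and 39.3, 42.5 and 49.3 TPM in PFF mice. The log2 fold change was -0.19 ± 0.038 (adjusted p = 0.0017 by edgeR), and it was -0.16 within batch 1 and -0.20 within batch 2. At 11% O2 *Yy1* had 41.1, 44.9 and 50.5 TPM in monomer and 43.2, 47.6 and 54.9 TPM in PFF mice. The interaction was 0.27 ± 0.057 (adjusted p = 0.0070 by edgeR), so the effect of PFF on *Yy1* differed between the O2 levels in the pooled fit. Within batch 1, the only batch with all 4 groups, the log2 fold change of *Yy1* with PFF was -0.16 at 21% and 0.068 at 11% O2. *Ppargc1b* had 10.2, 11.4 and 13.9 TPM in monomer mice and 6.92, 10.1 and 11.5 TPM in PFF mice at 21% O2, with a log2 fold change of -0.25 ± 0.071 (adjusted p = 0.0240). At 11% O2 it had 8.10, 8.97 and 10.6 TPM in monomer and 8.34, 10.4 and 11.5 TPM in PFF mice. It fell with 11% O2 in monomer mice (-0.32 ± 0.076, adjusted p = 0.0034), and its interaction was 0.42 ± 0.11 (adjusted p = 0.0224). Within batch 1 its log2 fold change with PFF was -0.24 at 21% and 0.092 at 11% O2. With 11% O2 *Gabpb1* rose in monomer mice (0.16 ± 0.049, adjusted p = 0.0226) and *Yy1* rose in PFF mice (0.16 ± 0.039, adjusted p = 0.0390). With PFF at 21% O2, 8 of 8 members with the YY1 letters and 27 of 30 searched members without them were above 0, with medians of 0.082 and 0.061 on the log2 scale. With PFF at 11% O2 the medians were 0.0046 with and 0.038 without the letters. With 11% O2 the monomer mice gave 0.034 and -0.011, and the PFF mice -0.047 and -0.045. Binding of these factors was not measured.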

How the data were processed

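RNA-seq of the SN of 48 mice was used. Per the labels and the study's methods, the authors selected poly(A) RNA, aligned reads to mm10 with STAR 2.7.5a after removing ribosomal DNA reads, removed duplicates with Picard 2.21.9, and counted reads per GENCODE gene with featureCounts 2.0.1, using the primary alignment and no strand option. Duplicate removal can lower counts of short, abundant transcripts. The authors deposited counts and TPM for 55385 genes. They left out 6 mice after a principal component analysis and deposited counts and TPM of 42 mice after ComBat-seq, which was given injection and O2 as covariates. Tests on counts corrected in this way do not carry the uncertainty of the correction, so p-values can be too small. Near-identical copies (*Ndufb4c*, *Ndufs5-ps*, *Ndufs6b* and *Ndufa11b*) can take reads from *Ndufb4*, *Ndufs5*, *Ndufs6* and *Ndufa11*, so these 4 are less certain.

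The corrected counts of 42 mice were tested with edgeR 4.0.16 (R 4.3.3): filterByExpr by group, TMM scaling, and quasi-likelihood tests in a single fit of all 4 groups, adjusted by Benjamini–Hochberg over 14839 genes and called under 0.05. SEs are the absolute log2 fold change over the square root of F, and intervals are 95%. Values within a batch come from uncorrected counts. The fit was also run on simulated counts, drawn gene by gene without batches or batch correction. That run cannot show how the correction affects the p-values. Counts per mouse limit the precision of the rarest members. Alternatives were DESeq2 1.42.0, its size factors, no filter, batch as a covariate, single batches, the replicate number as a block, the study's fold rule of 0.25, and limma 3.58.1 on log2(TPM + 1) or log2(TPM + 0.1), with or without a filter on mean TPM of 1. Fits without 1 mouse were added after seeing the data. Motif windows came from RefSeq, and gene models from GENCODE vM21 on GRCm38. Members and lists were chosen with earlier results of these data known. Named members are those that passed (up to 8 per comparison), the highest and lowest by TPM in each class, the core subunits, *Ndufs4*, and any behind a count of 5 or fewer. Members at the end of a range, such as *Ndufa12*, *Ndufb5* and *Ndufb1-ps*, were named after their values were seen. Genes of other lists are named only for small counts or the smallest p. Values of 1 member by itself are not reported here, although it is in the counts and medians. Replicates are separate mice. The study matched mice in sets across treatments, but the labels used here do not give these sets, so the fits ignore them.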

Additional observations from a re-analysis of the deposited data

Results flagged for a closer look

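Among the 16 members named by rule, 32 sets of 9 or 10 mice were searched for a mouse far from the rest, of which chance would flag about 1 in 20. One was found: *Ndufaf5* was at 87.2 TPM in a PFF mouse at 11% O2 (replicate 1), against 77.02 TPM in the next of 10 mice.

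By the interaction test on the pooled 42 mice, 2.32% of all 14839 genes were called. Among them were 5 genes of the lists set beside the members. They came from 10 regulators, 77 mitochondrial ribosomal proteins, 5 oligodendrocyte markers and 4 pericyte markers, and no gene of the other lists passed. The effect of PFF was higher at 11% O2 for *Ppargc1b* (0.42 on the log2 scale), *Yy1* (0.27) and *Mrps30*, a mitochondrial ribosomal protein (0.37, adjusted p = 0.0241 by edgeR). It was lower for the oligodendrocyte marker *Mog* (-0.33) and the pericyte marker *Pdgfrb* (-0.39), both with an adjusted p of 0.0268 by edgeR. No complex I gene passed this test.

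The table before correction alone, which also holds genes that are not protein coding, had signal for 2 copies of complex I genes that match the symbol rule: *Ndufb4c*, with a mean of 27.8 TPM and 19 to 58 counts in each of 48 mice, and *Ndufs5-ps*, with a mean of 31.1 TPM. They were not tested.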

How the results depend on the processing

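For PFF against monomer at 21% O2, where 2 members passed, 1 passed with batch as a covariate in 48 mice, with the replicate block (*Ndufb11* then at an adjusted p of 0.0509) and with limma on log2(TPM + 1) or log2(TPM + 0.1), and 0 in batch 1 or batch 2 alone or under the fold rule. *Ndufv3* passed in 12 of 14 alternatives (adjusted p from 0.0052 to 0.329) and *Ndufb11* in 8 of 14 (0.0287 to 0.581), with the same sign in all. These 14 leave out the fold rule and include the fits without 1 mouse, which were added after seeing the data. The fits without a monomer mouse at 11% O2 left both groups of this comparison whole, so they say little about it. For 11% O2 in monomer mice, where 1 passed, 2 passed with DESeq2, with its size factors, with 48 mice, with the replicate block and with either limma pseudocount, 3 with limma at a mean TPM of at least 1 (*Ndufaf5* being among those called with 48 mice, the block, at an adjusted p of 0.0294, and all limma fits), and 0 with batch as a covariate in 42 mice, in batch 1 alone or under the fold rule. *Ndufb2* passed in 11 of 13 alternatives, with log2 fold changes from -0.29 to -0.21. These 13 also leave out the fold rule and include a fit without PFF replicate 6 at 21% O2, a group outside this comparison. Without 1 mouse (monomer at 11% O2 replicate 7 or 11, or PFF at 21% O2 replicate 6), the count was 2 to 3 for PFF at 21% O2 (the third being *Ndufc2*) and 1 to 2 for 11% O2 in monomer mice, and the 2 there, *Ndufb2* and *Ndufv3*, came without PFF replicate 6. In some comparisons the median of the members changed sign. For 11% O2 in PFF mice it was 0.032 in batch 2. For 11% O2 in monomer mice it was 0.045 in batch 1 and 0.0012 without replicate 11. For PFF at 11% O2 it was -0.029 in batch 1. The medians kept their sign for PFF at 21% O2, from 0.013 to 0.098, and for the interaction, from -0.14 (batch 1) to -0.015. In the other comparisons the replicate block left 0 members. Mice with the same number had a median r of 0.0051 over 54 pairs, from -0.39 to 0.54, with 21 of them over 0.1. Some of these pairs join mice of different batches, so the values cannot show whether mice were matched within a batch. The labels do not tie the numbers to matched sets, so the numbers were not taken as pairs. The cause of these differences was not tested. In single batches fewer mice were in the fit.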
